A study of Mus musculus with 7 samples.

Results

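The microRNAs miR-192, miR-194 and miR-215 are made from a pair of gene clusters, each with 2 hairpins, and were followed here in the colorectum of mice with chemically induced colorectal cancer (CRC) and of healthy mice. All entries of the count table whose names begin with mmu-miR-192-, mmu-miR-194- or mmu-miR-215- were taken, which gave 7 of 1915 mature microRNAs. All mice were female C57BL/6 with a wild-type genotype, and the age given is 7 weeks. The 3 CRC mice (M4, M5 and M6) had received the carcinogen azoxymethane (AOM), which acts on the colon, at 10 mg per kg body weight. After 5 days they drank water with 2.5% dextran sodium sulfate (DSS), an agent that damages the colon epithelium, for 7 days and then water for 14 days, a course given 3 times in the full scheme. These mice are labelled stage T1, day 17, and the event from which that day was counted was not established here. How many of the courses they had completed by then was therefore not established either. For the 3 healthy mice (M1, M2 and M3) the labels give 0.9% saline in place of AOM. The labels do not make clear whether the healthy mice also drank DSS. A difference between the groups may therefore reflect AOM alone or AOM with DSS, and no labelled group separates these from any tumours, so they cannot be told apart. The labels list 2 libraries of M1 and the table holds 1 column of that name, which was used as 1 mouse.

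MicroRNAs are short RNAs that pair with messenger RNAs through bases 2 to 8, the seed, and lower their translation and stability. miR-192, miR-194 and miR-215 are known as abundant microRNAs of the intestinal epithelium, above all of enterocytes, and also occur in liver and kidney. In human cells they are known as targets of the tumour suppressor p53, and low levels in human colorectal tumours have been described.

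The mature sequences, from RefSeq on GRCm38.p6 and equal to those in the count table, are printed because the seed decides which microRNAs can share targets. Seeds are in capitals, 5′ to 3′.
mmu-miR-192-5p: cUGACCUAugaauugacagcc
mmu-miR-215-5p: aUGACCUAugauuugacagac
mmu-miR-194-5p: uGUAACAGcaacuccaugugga
mmu-miR-194-1-3p: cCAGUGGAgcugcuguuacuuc
mmu-miR-194-2-3p: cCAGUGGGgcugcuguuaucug
mmu-miR-192-3p: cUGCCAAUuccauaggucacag
mmu-miR-215-3p: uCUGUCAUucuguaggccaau
miR-192-5p and miR-215-5p share the seed UGACCUA, which no other entry of the table has. They are identical at 18 of 21 bases, and miR-215-5p differs from miR-192-5p by C1A, A12U and C20A, with positions counted from the 5′ end. The 3p arms of the miR-194 copies are identical at 18 of 22 bases. miR-194-2-3p differs from miR-194-1-3p by A8G, C19U, U20C and C22G, so the last base of the seed is not the same. The other entries with the seed of miR-194-2-3p are miR-6926-5p and miR-7055-5p.

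The clusters lie on the plus strand of chromosomes 19 and 1. On chromosome 19, Mir194-2 (chr19:6264643-6264728) is 115 bases upstream of Mir192 (chr19:6264844-6264932), and GENCODE M21 has no other gene over them. On chromosome 1, Mir194-1 (chr1:185313319-185313385) is 195 bases upstream of Mir215 (chr1:185313581-185313692). Mir194-1 is in an intron and Mir215 overlaps an exon of the noncoding gene 2010103J01Rik on the same strand. Both also lie in introns of Iars2, the mitochondrial isoleucyl-tRNA synthetase, on the opposite strand. The miR-194 hairpins show why 1 arm can be assigned to a cluster and the other cannot; mature arms are in capitals.
Mir194-1: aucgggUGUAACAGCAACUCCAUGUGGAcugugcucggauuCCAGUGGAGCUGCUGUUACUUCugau
Mir194-2: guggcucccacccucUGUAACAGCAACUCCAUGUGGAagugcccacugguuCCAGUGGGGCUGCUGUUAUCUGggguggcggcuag
The 5p arm is the same in both, so a miR-194-5p read fits either locus. The 3p arms differ, and their counts are the only miR-194 counts that separate the clusters.

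**Figure D1:**
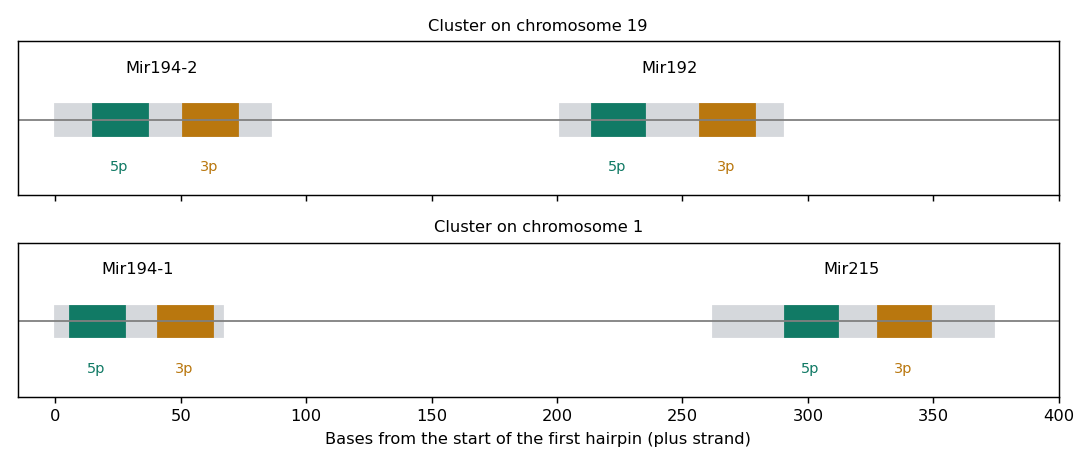
Map of the clusters on chromosomes 19 and 1, with distance in bases from the start of the first hairpin on the x axis. Grey boxes are hairpins, green boxes 5p arms and orange boxes 3p arms; the hairpins are 115 bases apart on chromosome 19 and 195 bases apart on chromosome 1.

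Total microRNA reads were 3206127 to 6601899 in the CRC mice and 8222508 to 15280434 in the healthy mice. Levels are given as CPM, counts on a common library size, with library sizes scaled by TMM, a method that takes most microRNAs to be equal between libraries. The mice did not fall into their groups by profile. Over 279 microRNAs with a mean of at least 50 CPM, the correlation of log2 CPM was 0.966 between M3, a healthy mouse, and M4, a CRC mouse. It was 0.985 between M5 and M6, 0.992 between M1 and M2, and at most 0.910 for any other combination. These are correlations across microRNAs, which are not independent replicates. Results that rest on M3 or M4 are therefore also given without them.

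Together the 7 entries were 9.69% of all microRNA reads in M4, 6.17% in M5 and 8.96% in M6, against 7.71% in M1, 7.24% in M2 and 5.23% in M3. The 95% Wilson interval was widest in M6, from 8.93% to 8.99%, and covers counting error only. The share averaged 8.28 ± 1.86% in CRC mice and 6.73 ± 1.32% in healthy mice (SD, n = 3 each), and the groups overlapped (exact two-sided permutation p = 0.3; with 3 mice against 3 the smallest possible p is 0.1). On the TMM scale the summed level was 102248 CPM in M4, 39854 in M5 and 61108 in M6, against 107066 CPM in M1, 124547 in M2 and 47392 in M3. The mean log2 sum differed by -0.45 (CRC minus healthy; exact two-sided permutation p = 0.5). So the direction of the sum turned with the scaling, as the share is higher and the TMM sum lower in CRC mice. The difference of the share, 1.55 percentage points with all reads, was -1.09 points when the 5 most abundant other microRNAs were left out of the total. Without M3 and M4 the share differed by 0.093 points and the log2 sum by -1.23. When single mice were left out, the share difference ran from 0.80 points without M3 to 2.60 points without M5, and that of the log2 sum from -0.12 without M5 to -0.88 without M3.

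Single levels ran from 3.62 CPM to 65524 CPM, as the plot of the entries by mouse shows. In CRC mice miR-192-5p was highest, then miR-194-5p, miR-215-5p, miR-192-3p, miR-215-3p, miR-194-2-3p and miR-194-1-3p. Among these, the ranges of miR-194-5p and miR-215-5p overlapped, as did those of miR-215-3p and miR-194-2-3p. Healthy mice had the same order except that miR-194-2-3p came before miR-215-3p. In healthy mice the ranges overlapped between those 3p arms, between miR-192-5p and miR-194-5p and between miR-194-5p and miR-215-5p. Each read covers 1 mature RNA of 21 or 22 bases, and over all 6 mice the order was the same per base of mature length, with 2218 CPM per base for miR-192-5p and 1.19 CPM per base for miR-194-1-3p. Reads of different sequences can be captured with different efficiency, which was not measured.

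**Figure D2:**
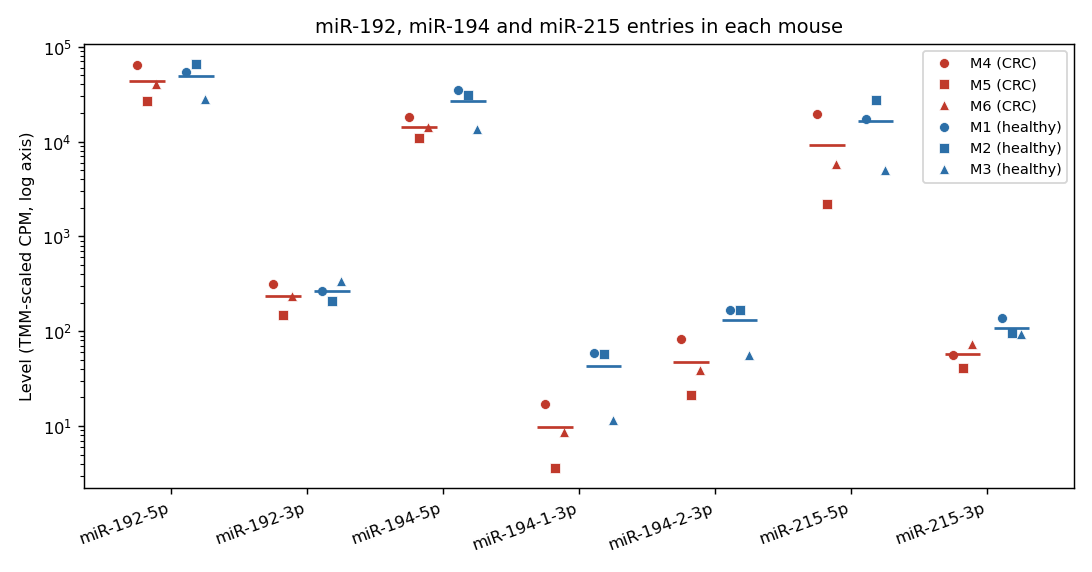
Level of each entry in each mouse, as TMM-scaled CPM on a log axis, with CRC mice in red left of healthy mice in blue and lines at group means. The healthy mouse M3 lies below M1 and M2 for every entry but miR-192-3p.

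mmu-miR-192-5p, the enterocyte guide strand that dominates the chromosome 19 cluster, did not differ between the groups beyond the spread of the mice. It had 63989 CPM in M4, 26551 in M5 and 40742 in M6, against 54269 CPM in M1, 65524 in M2 and 28441 in M3. The lowest CRC mouse and the lowest healthy mouse were close, and so were the highest, so the groups overlapped over nearly their whole range. The log2 fold change, CRC over healthy, was -0.18 (SE 0.44, Benjamini-Hochberg adjusted p = 0.836, edgeR's quasi-likelihood test over 878 microRNAs). Among all entries of the table it held rank 3 or 4 by reads in the CRC mice and rank 4 to 6 in the healthy mice.

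Its other arm, mmu-miR-192-3p, had 318 CPM in M4, 147 in M5 and 234 in M6, against 264 CPM in M1, 206 in M2 and 335 in M3. M3 was the highest mouse here and, after M5, the lowest for the 5p arm. The groups overlapped, and the estimate of -0.20 on the log2 scale was smaller than its SE of 0.43 (edgeR, adjusted p = 0.800).

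mmu-miR-194-5p, which both clusters make, was lower in M5, M6 and M3 than in the other mice. It had 18223 CPM in M4, 10877 in M5 and 14154 in M6, against 34748 CPM in M1, 31346 in M2 and 13489 in M3. All CRC mice lay below M1 and M2, and M3 lay between the CRC mice. Its log2 fold change was -0.88 (SE 0.43, adjusted p = 0.245, edgeR), from -0.56 without M2 to -1.27 without M3.

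The 3p arms of miR-194, the strands that are mostly discarded, had the lowest fold changes of the 7 entries. mmu-miR-194-1-3p of the chromosome 1 cluster had 16.9 CPM in M4, 3.62 in M5 and 8.72 in M6, against 59.1 CPM in M1, 56.9 in M2 and 11.6 in M3. The M5 value rests on 20 reads (95% exact Poisson interval 2.21 to 5.59 CPM). The log2 fold change was -2.12 (SE 0.74, adjusted p = 0.126, edgeR). M1 and M2 stood about alike at the top, and M3 lay inside the CRC range.

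mmu-miR-194-2-3p of the chromosome 19 cluster had the same layout, with 82.5 CPM in M4, 21.4 in M5 and 39.1 in M6, against 167 CPM in M1, 168 in M2 and 56.5 in M3. Its log2 fold change was -1.45 (SE 0.61, adjusted p = 0.194, edgeR). Again M3 lay below M4 and above M5 and M6.

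mmu-miR-215-5p, the chromosome 1 partner that shares its seed with miR-192-5p, varied most among the abundant entries. It had 19562 CPM in M4, 2213 in M5 and 5856 in M6, against 17420 CPM in M1, 27151 in M2 and 4967 in M3. The highest mouse had 12.3 times the level of the lowest, against 2.47 times for miR-192-5p, and both groups held high and low mice. The log2 fold change was -0.84 (SE 0.78, adjusted p = 0.552, edgeR), and it rested on single mice, with -0.087 without M2, -0.35 without M5, -1.31 without M3 and -1.93 without M4. Added up by seed, miR-192-5p and miR-215-5p had 52971 ± 27944 CPM in CRC mice and 65924 ± 30051 CPM in healthy mice (SD, n = 3 each).

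mmu-miR-215-3p had 56.6 CPM in M4, 41.1 in M5 and 74.0 in M6, against 139 CPM in M1, 95.6 in M2 and 92.6 in M3. It was the 1 entry of the 7 with every CRC mouse below every healthy mouse, an arrangement that 12.4% of the 878 tested microRNAs had. Its log2 fold change was -0.93 (SE 0.42, adjusted p = 0.221, edgeR).

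All 7 entries passed the filter on low counts, and 0 of them rose or fell in edgeR's test at an adjusted p of 0.05, where 2.28% of the 878 microRNAs were called higher and 0% lower. At an unadjusted p under 0.05 the 2 miR-194 3p arms were lower, where 9.68% of all tested microRNAs were lower and 23.2% differed in either direction at that level. DESeq2 called 1 entry lower, miR-194-1-3p (adjusted p = 0.0300), with 3.99% of all tested microRNAs called lower, and limma-voom called 0. The median log2 fold change of the 7 entries was -0.88 and all 7 were negative with TMM, though miR-192-5p and miR-192-3p were positive with total counts alone. Over the 878 tested microRNAs the median was -0.03 and 51.5% were negative. The 7 entries come from 4 hairpins on a pair of loci and are not independent.

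The scaling sets the level of these differences. When libraries were scaled by total counts alone, the median of all 878 microRNAs was at 0.62, against -0.03 with TMM, and miR-192-5p and miR-192-3p turned positive, at 0.57 and 0.36. miR-194-5p, miR-215-5p and miR-215-3p came close to 0, at -0.082, -0.15 and -0.19. Relative to that median miR-192-5p and miR-192-3p were at -0.05 and -0.26, and miR-194-1-3p and miR-194-2-3p were at -1.98 and -1.35. On the same footing miR-194-5p, miR-215-5p and miR-215-3p were at -0.70, -0.77 and -0.81. Removing trends with the GC content of the sequences brought miR-192-5p to 0.0018, miR-194-5p to -0.66, miR-215-5p to -0.58 and miR-215-3p to -0.68. With TMM recomputed after that step the last 3 were at -0.57, -0.52 and -0.59. The miR-194 3p arms did not come closer to 0 when GC trends were removed. miR-194-1-3p was at -2.13 and miR-194-2-3p at -1.61, or -2.06 and -1.54 with TMM recomputed.

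Without M3 and M4, a choice made with earlier results of these data known, 6 of the 7 entries were lower in CRC mice at an adjusted p of 0.05 in edgeR's test, all but miR-192-3p. In that comparison of M5 and M6 with M1 and M2, 27.4% of 1082 tested microRNAs were also called lower, and their median log2 fold change was 0.12. That is 297 called lower, with 279 called higher, against 0 lower and 20 higher of 878 with all 6 mice. M3 and M4 were left out for their profiles in these same data. The p-values do not allow for that choice, so these calls are a description and not a test. The log2 fold changes were -3.51 for miR-194-1-3p, -2.73 for miR-194-2-3p, -2.71 for miR-215-5p, -1.67 for miR-194-5p, -1.29 for miR-215-3p, -1.10 for miR-192-5p and -0.56 for miR-192-3p. Without M4 alone, edgeR called miR-194-1-3p (-2.67, adjusted p = 0.0395) and miR-194-2-3p (-1.99, adjusted p = 0.0406), with 5.64% of all tested microRNAs called lower. Without M3 alone it called 0 of the 7, with 3.18% of all tested microRNAs called lower, and it also called 0 without M1, M2, M5 or M6.

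Between M4 and M3, the CRC and healthy mice with the closest profiles, the direction was the other way for most entries. miR-215-5p was 3.94 times as high in M4 as in M3, miR-192-5p 2.25 times and miR-194-5p 1.35 times. miR-194-1-3p and miR-194-2-3p were each 1.46 times as high in M4. miR-192-3p (0.950 times) and miR-215-3p (0.611 times) were lower in M4. Each is 1 mouse against 1, with no test.

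**Figure D3:**
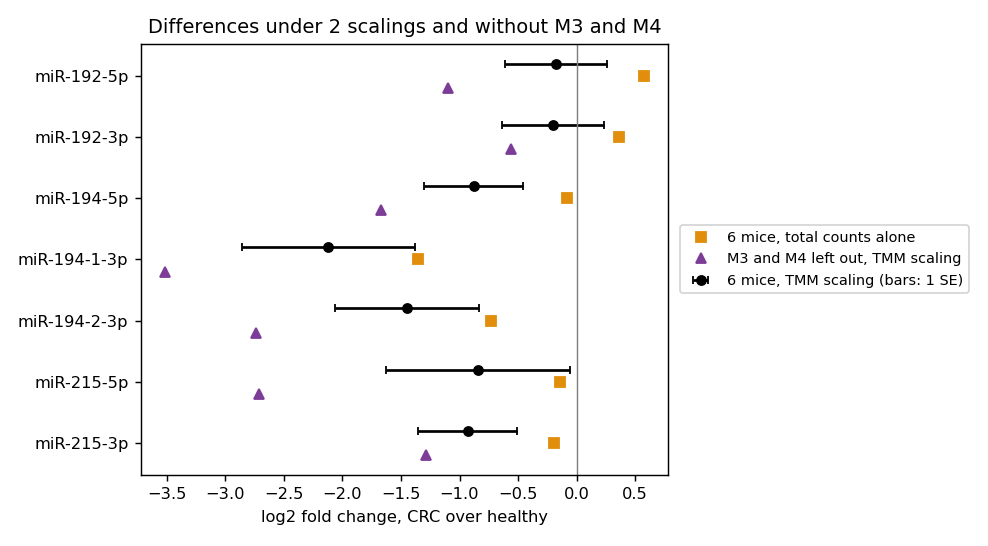
log2 fold change of each entry, CRC over healthy, with all 6 mice on the TMM scale (black, bars of 1 SE), with total counts alone (orange squares) and without M3 and M4 (purple triangles). All 7 black points are below 0, the total-count values of miR-192-5p and miR-192-3p are above 0, and the values without M3 and M4 run from -0.56 to -3.51.

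Ratios between entries of the same library do not depend on its scaling, and 7 such or summed measures were compared between the groups, with p-values also adjusted over the 7. The ratio of miR-192-5p to miR-194-5p was higher in each CRC mouse than in each healthy mouse. There were 3.51 reads of miR-192-5p per read of miR-194-5p in M4, 2.44 in M5 and 2.88 in M6, against 1.56 in M1, 2.09 in M2 and 2.11 in M3. The mean log2 ratio was 1.54 ± 0.26 in CRC mice and 0.93 ± 0.25 in healthy mice (SD, n = 3 each), a difference of 0.61 (exact two-sided permutation p = 0.1, the smallest this design allows; adjusted p = 0.35). The difference kept its sign in all of the alternatives run, from 0.47 without M1 to 0.74 without M5, and was 0.55 without M3 and M4.

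miR-192-5p accordingly made up more of the reads of the 7 entries in CRC mice. Its part was 62.6% in M4, 66.6% in M5 and 66.7% in M6, against 50.7% in M1, 52.6% in M2 and 60.0% in M3. The parts of miR-215-5p were 19.1% in M4, 5.55% in M5 and 9.58% in M6, against 16.3% in M1, 21.8% in M2 and 10.5% in M3. The parts of miR-194-5p were 17.8% in M4, 27.3% in M5 and 23.2% in M6, against 32.5% in M1, 25.2% in M2 and 28.5% in M3. The 95% Wilson intervals reached at most 0.197 percentage points from any of these values, so counting error is small beside the spread of the mice. The groups overlapped for miR-215-5p and miR-194-5p.

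The loci were then set against each other. Reads of miR-215-5p per read of miR-192-5p were 0.306 in M4, 0.0833 in M5 and 0.144 in M6, against 0.321 in M1, 0.414 in M2 and 0.175 in M3. M4 stood beside M1 on this measure, and M3 beside M6. The difference of the mean log2 ratios was -0.89 (exact two-sided permutation p = 0.2, adjusted p = 0.35); it was -0.44 without M5, -1.38 without M4 and -1.74 without M3 and M4. The ratio of all reads that belong to the chromosome 1 cluster alone to those that belong to the chromosome 19 cluster alone gave -0.88 (exact two-sided permutation p = 0.2, adjusted p = 0.35), since miR-215-5p and miR-192-5p hold nearly all of these reads.

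The 3p arms of the miR-194 copies gave a view of the loci that miR-215-5p and miR-192-5p do not enter. Reads of miR-194-1-3p per read of miR-194-2-3p, with 0.5 added to the counts, were 0.206 in M4, 0.173 in M5 and 0.225 in M6, against 0.354 in M1, 0.340 in M2 and 0.205 in M3. The reads behind them were few, with 20 of miR-194-1-3p and 118 of miR-194-2-3p in M5. M6 had 41 and 184, M4 had 106 and 516, and M3 had 105 and 513. Counting error was not computed for these ratios, so the order of M3, M4, M5 and M6 among themselves was not determined. In all 6 mice the 3p arm of the chromosome 19 copy had more reads than that of the chromosome 1 copy. The far more numerous 5p reads cannot be divided between the copies, so which copy gave more miR-194 reads was not determined. M1 and M2 had the highest ratios, and M3 and M4 were nearly equal. The difference of the mean log2 ratios was -0.54 (exact two-sided permutation p = 0.3, adjusted p = 0.35), and -0.81 without M3 and M4.

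Within hairpins, 5p reads exceeded 3p reads many times over in all mice. miR-194 had 183 5p reads per 3p read, both copies added up, in M4, 435 in M5 and 296 in M6, against 154 in M1, 140 in M2 and 198 in M3. The mean log2 ratio, with 0.5 added to the counts, was 8.16 ± 0.62 in CRC mice and 7.34 ± 0.26 in healthy mice (SD, n = 3 each; exact two-sided permutation p = 0.2, adjusted p = 0.35), and the difference was 0.82, or 1.29 without M3 and M4. M3 was above M4, so the groups overlapped.

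miR-192 had 201 5p reads per 3p read in M4, 180 in M5 and 174 in M6, against 206 in M1, 318 in M2 and 85.0 in M3. miR-215 had 346 in M4, 53.8 in M5 and 79.1 in M6, against 125 in M1, 284 in M2 and 53.7 in M3. For both hairpins the range in healthy mice was wider than the difference between group means. In a limma test over 236 precursors with both arms counted, of which 0.424% were called, the log2 5p to 3p ratio differed by 0.06 for miR-192 (SE 0.51, adjusted p = 0.940) and by -0.13 for miR-215 (SE 0.80, adjusted p = 0.929). Without M3 and M4 it was -1.53 for miR-215 (adjusted p = 0.0288, limma), in a comparison where 36% of 247 precursors were called. That p-value does not allow for the choice of the mice left out.

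**Figure D4:**
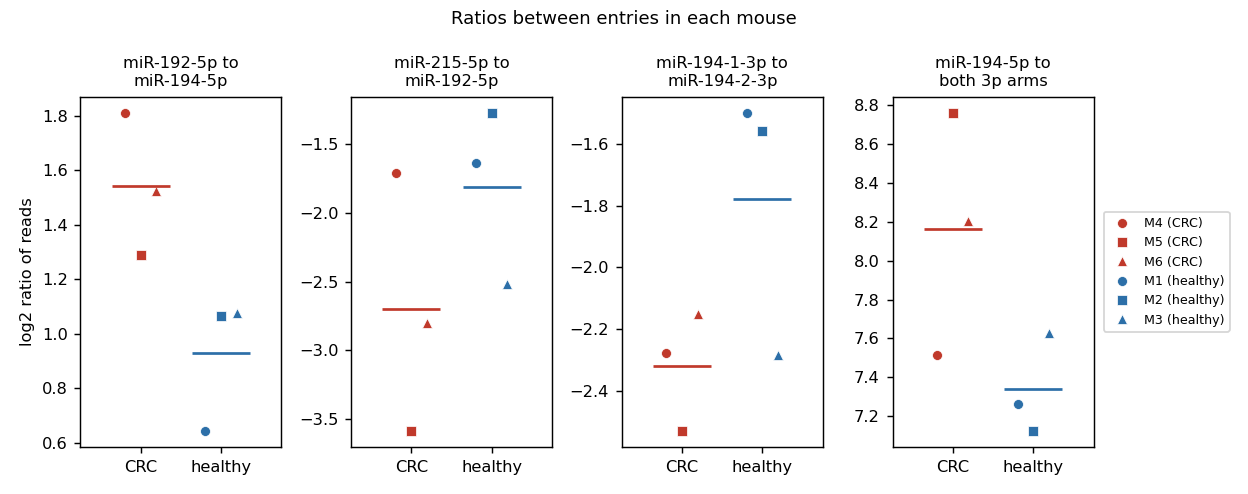
log2 ratio of reads in each mouse for 4 pairs of entries, CRC mice in red left of healthy mice in blue, lines at group means. Only in the first panel, miR-192-5p to miR-194-5p, do the CRC mice (1.29 to 1.81) all lie above the healthy mice (0.64 to 1.08).

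The microRNAs whose levels followed the clusters most closely were found by the SD, over the 6 mice, of the log2 ratio of their reads to those of a cluster entry, among 273 tested microRNAs with a mean of at least 50 CPM. A small SD means that the ratio hardly moved from mouse to mouse. For miR-194-5p these were miR-467a-5p (0.14), miR-151-5p (0.21), miR-128-3p (0.21), miR-423-3p (0.21) and miR-425-5p (0.22), where the median over all 273 was 0.76. For miR-192-5p they were miR-3968 (0.22), miR-423-3p (0.23), miR-107-3p (0.25), miR-103-3p (0.25) and miR-425-5p (0.25), with a median of 0.71. For miR-215-5p they were miR-3102-3p (0.44), miR-1839-3p (0.61), miR-455-3p (0.66), miR-494-3p (0.66) and miR-3105-5p (0.68), with a median of 1.30. Of the cluster entries left out, miR-194-2-3p of the chromosome 19 cluster was closest to miR-215-5p. Its SD of 0.53 was smaller than those listed for miR-215-5p except that of miR-3102-3p.

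By this measure none of these 3 5p arms had another of them as its nearest neighbour. The SD between miR-192-5p and miR-194-5p was 0.41, and 26 of the 273 microRNAs were closer to miR-192-5p than that and 48 were closer to miR-194-5p. Between miR-215-5p and miR-192-5p it was 0.87, with 34 microRNAs closer to miR-215-5p. Between the miR-194 3p arms it was 0.42. These SDs are descriptions over 6 mice, and all ratios within a library share its counting.

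Other epithelial microRNAs, which are not all particular to the intestine, gave 0 calls among 21 tested entries in edgeR's test. There were 2 at an unadjusted p under 0.05 (23.2% of all tested microRNAs), 13 negative, 8 positive and a median log2 fold change of -0.47. The list and its members were chosen with earlier results of these data known. miR-200a-3p, known to keep epithelial character, had -0.67 (SE 0.33), and its relative miR-200b-3p had -0.10 (SE 0.32). Their family members miR-141-3p, miR-429-3p and miR-200c-3p had -1.02 (SE 0.46), -0.49 (SE 0.35) and 0.30 (SE 0.36), and the 5p arms miR-200a-5p, miR-200b-5p and miR-141-5p -1.12, -0.85 and -0.42. miR-375-3p, a microRNA of secretory and endocrine cells, had -0.47 (SE 0.47), miR-7a-5p, also of endocrine cells, -0.63 (SE 0.41) and miR-7a-1-3p -0.50 (SE 0.42). miR-203-3p, known from stratified epithelium, had 0.54 (SE 0.49). miR-31-5p and miR-31-3p, known to be raised in inflamed and transformed colon, had 3.22 (SE 1.27) and 2.59 (SE 1.46).

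The summed level of these 21 entries was 67088 to 91988 CPM in CRC mice and 76297 to 101621 CPM in healthy mice, and this overlap rested on miR-31. miR-31-5p alone had 19829 CPM in M4, 12117 in M5 and 5463 in M6, against 87.2 CPM in M1, 150 in M2 and 3771 in M3. Without both miR-31 arms, a choice made after these values were seen, the other 19 entries summed to 71438 CPM in M4, 53839 in M5 and 64950 in M6, against 95818 CPM in M1, 101467 in M2 and 72130 in M3. Every CRC mouse was then below every healthy mouse, with M4 and M3 closest to each other and nearly equal. Of single tested microRNAs, 12.4% had this arrangement. For each read of this list there were 1.11 reads of the miR-192, miR-194 and miR-215 entries in M4, 0.594 in M5 and 0.861 in M6, against 1.12 in M1, 1.23 in M2 and 0.621 in M3. Without the miR-31 arms the ratio was 1.43 in M4, 0.740 in M5 and 0.941 in M6, against 1.12 in M1, 1.23 in M2 and 0.657 in M3. M4 then had the highest ratio and M3 the lowest, and the groups overlapped with and without miR-31. In bulk tissue, fewer cells of a type and less RNA per cell cannot be told apart.

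Markers of other cell types did not all order the mice alike. The list named smooth muscle holds miR-143 and miR-145a, and also miR-1a, miR-133a and miR-133b, which are muscle microRNAs not confined to smooth muscle. Its 11 entries, of which 10 were tested, had 0 calls and 10 at an unadjusted p under 0.05 in edgeR's test. All 10 were negative, where 9.68% of all tested microRNAs were lower at that level. The summed level was 44711 to 218891 CPM in CRC mice and 191276 to 824849 CPM in healthy mice. The most abundant, miR-145a-5p, had a log2 fold change of -2.48 (SE 0.84), and the next, miR-143-3p, had -2.11 (SE 0.54). The sum of this list was highest in M1 and M2 and lowest in M5 and M6, the same division as for the miR-194 3p arms. Fibroblast and nerve and glia sums had this division too, and so did the other epithelial sum, with and without miR-31. The SD over the 6 mice of the log2 ratio to miR-194-5p was 0.34 for the fibroblast sum, 0.38 for the nerve and glia sum and 1.19 for the smooth muscle sum, against 0.47 for the other epithelial sum, or 0.37 without miR-31.

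Leukocyte microRNAs (8 entries, 0 calls, 0 at an unadjusted p under 0.05) summed to 7336 to 8768 CPM in CRC mice and 3770 to 15819 CPM in healthy mice, with the highest value in M3 and the lowest in M1 and M2. Of all tested microRNAs, 23.2% differed at that level, the share that belongs beside each such count in this paragraph. Red blood cell microRNAs (7 entries, 0 calls, 2 at an unadjusted p under 0.05, both positive) summed to 498 to 1904 CPM in CRC mice and 304 to 589 CPM in healthy mice, and were likewise lowest in M1 and M2. Fibroblast microRNAs (6 entries, 0 calls, 1 at an unadjusted p under 0.05, negative) summed to 5093 to 12160 CPM in CRC mice and 7528 to 15665 CPM in healthy mice. The 2 arms of the endothelial miR-126a (0 calls, 0 at an unadjusted p under 0.05) summed to 9392 to 12694 CPM in CRC mice and 11007 to 13527 CPM in healthy mice, with no such division of the mice. Nerve and glia microRNAs (13 entries, 8 tested, 0 calls, 2 at an unadjusted p under 0.05) summed to 419 to 623 CPM in CRC mice and 685 to 975 CPM in healthy mice, with no overlap. Among single tested microRNAs, 12.4% had every CRC mouse below every healthy mouse. The list was not uniformly lower, with 5 log2 fold changes negative and 3 positive. Its 2 entries at an unadjusted p under 0.05, named after their values were seen, went opposite ways. miR-124-3p had -2.34 (SE 0.60) and miR-219a-1-3p had 1.92 (SE 0.48). No listed entry was at 0 in all mice, and the part of these cell types in the results was not tested.

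The hepatocyte marker miR-122, checked because liver also makes miR-192 and miR-194, was close to absent, with both arms at 0.639 to 3.26 CPM in CRC mice and 0.661 to 2.01 CPM in healthy mice. The miR-34 family, also induced by p53, had 0 calls among 5 tested of 6 entries, with 1 at an unadjusted p under 0.05. At that level 23.2% of all tested microRNAs differed. For miR-34a-5p the log2 fold change was 0.34 (SE 0.40), and for miR-34c-5p it was 0.0030 (SE 0.48). The 1 entry at an unadjusted p under 0.05, named after its value was seen, was miR-34b-5p, with 46.3 CPM in M4, 48.3 in M5 and 38.9 in M6, against 97.2 CPM in M1, 99.5 in M2 and 74.0 in M3. Every CRC mouse lay below every healthy mouse, an arrangement that 12.4% of the 878 tested microRNAs had. The log2 fold change of miR-34b-5p was -1.02 (SE 0.39, adjusted p = 0.156, edgeR). Its other arm, miR-34b-3p, had -0.15 (SE 0.52), and there the groups overlapped.

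**Figure D5:**
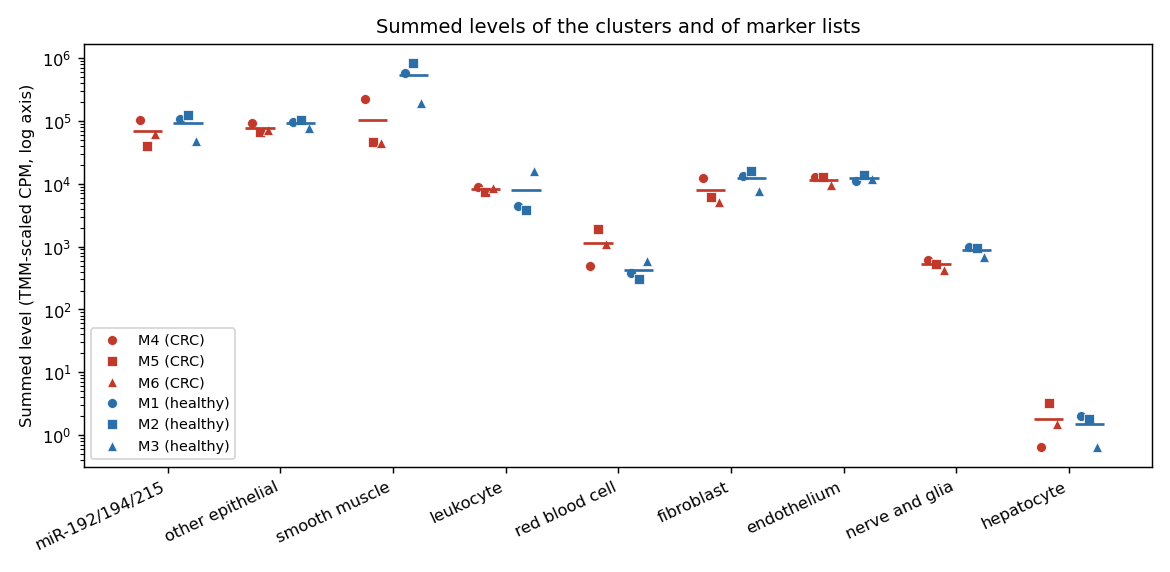
Summed level of the miR-192, miR-194 and miR-215 entries and of marker lists in each mouse, as TMM-scaled CPM on a log axis, CRC mice in red left of healthy mice in blue, lines at group means. The clusters overlap between groups, the other epithelial list overlaps with miR-31 included (without it, 53839 to 71438 CPM in CRC mice and 72130 to 101467 CPM in healthy mice), smooth muscle runs from 44711 to 824849 CPM, and miR-122 lies below 4 CPM in all mice.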

How the data were processed

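Small RNA of mouse colorectum was sequenced on an Ion Proton, per the labels' protocols. Alignment used BWA and mm10 (GRCm38), as the submitters' processing notes list them. Counts as deposited are whole numbers with no normalization, 1 value per mouse for 1915 mature microRNAs. The rule for reads that fit more than 1 hairpin was not given in the sources used here. edgeR 4.0.16 (R 4.3.3) was run with TMM, filterByExpr by group and a robust quasi-likelihood fit, and p-values were adjusted by Benjamini-Hochberg over 878 microRNAs. An SE is the absolute log2 fold change over the root of F. Arm ratios, with 0.5 added and a mean of at least 10 counts per arm, were tested with limma 3.58.1. Ratios, shares and sums were compared by exact permutation of mice, which are separate animals by label. The scripts were tested on simulated data. DESeq2 1.42.0, limma-voom, other scalings and filters, GC trend removal (loess, span 0.75) and leaving out mice were alternatives. The members and lists were chosen with earlier results of these data known. Every member is named, with the 5 microRNAs outside the clusters closest to each main 5p arm. All other epithelial microRNAs with a mean of at least 50 CPM are named too. Up to 2 of each other list are named, apart from entries added after their values were seen.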

Additional observations from a re-analysis of the deposited data

How the results depend on the processing

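No entry was called higher under any alternative. With all 6 mice the number called lower was 0 in edgeR and limma-voom and 1 in DESeq2. In edgeR it was 6 without M3 and M4, a choice of mice that the p-values do not allow for, and 0 to 2 when single mice were left out. The log2 fold change of miR-192-5p turned positive with total counts alone (0.57) and with GC trends removed (0.0018, or 0.082 with TMM recomputed), and ran from -0.51 to 0.24 when single mice were left out. That of miR-192-3p was 0.36 with total counts alone and ran from -0.40 to 0.066 when single mice were left out. The fold changes of the other 5 entries stayed negative in all alternatives run. With total counts alone miR-194-5p, miR-215-5p and miR-215-3p came to -0.082, -0.15 and -0.19, against -0.88, -0.84 and -0.93 with TMM. The values also moved when single mice were left out. They ran from -0.087 to -1.93 for miR-215-5p, -0.56 to -1.27 for miR-194-5p and -0.70 to -1.17 for miR-215-3p. The ranges were -1.64 to -2.67 for miR-194-1-3p and -1.04 to -1.99 for miR-194-2-3p. At a minimum of 50 CPM miR-194-1-3p was not tested. The arm balance of miR-192 was -0.53 without M3 and M4 and ran from -0.47 to 0.48 without single mice, and that of miR-215 was -1.53 and ran from -0.93 to 0.47. The difference of the share of all reads was -1.09 percentage points without the 5 most abundant other microRNAs, and the log2 sum was 0.29 higher with total counts alone. The 5 ratios kept their signs in the alternatives run, of which those without M3 and M4 were added after seeing the data, as were those of the share and the sum. The causes of these shifts were not tested. With 3 mice a group, permutation cannot give a p below 0.1, and mice left out lower the number of values further.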

Other observations

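The arms of a hairpin did not always move together between mice. From the hairpin of miR-215, the 5p arm was 3.94 times as high in M4 as in M3 while the 3p arm was 0.611 times as high, and from that of miR-192 the values were 2.25 and 0.950 times. Both miR-194 3p arms and the shared 5p arm were 1.35 to 1.46 times as high in M4 as in M3. The 5p to 3p ratio of miR-215 was thus highest in M4 (346) and M2 (284), and about equal in M5 (53.8) and M3 (53.7), mice of different groups.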
